A study of Mus musculus with 6 samples.

Results

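Eosinophil granule and receptor genes are 8 genes of the 53342 in the table: the eosinophil-associated ribonucleases Ear1, Ear2 and Ear6, the granule proteins Prg2, Prg3 and Epx, and the receptors Ccr3 and Il5ra. They were taken by gene symbol. The set was drawn up with the WT against Mmp13-/- values of these same samples already known. Ear1, Ear2, Ear6 and Prg3 stand in the study's own list of the most strongly upregulated known genes. The levels and fold changes of the 8 are therefore given as a description, with no test. All 8 passed the filter on low counts, which 24534 genes passed. Eosinophils are granulocytes made in bone marrow, and their growth and survival depend on the cytokine IL-5, which they bind through the receptor chain encoded by Il5ra. Their large granules hold toxic cationic proteins, namely major basic protein, eosinophil peroxidase and ribonucleases, and the receptor Ccr3 draws the cells into tissue along gradients of eotaxins. The granule proteins are made mainly while the cell matures in marrow, whereas the receptors are also expressed on mature cells.

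The study asked how pulp gene expression differs between WT mice and mice lacking Mmp13, a collagenase of mineralizing tissues. Dental pulp, the soft connective tissue inside the tooth, was taken from C57BL/6 mice at 3 months of age and profiled by RNA sequencing in 3 WT samples (numbered 2, 4 and 5) and 3 Mmp13-/- samples (numbered 1, 2 and 6). Each sample was an independent biological sample of its genotype, the knockout is present in every cell of the animal, and no treatment was given to either genotype. The methods name incisors and TRIzol extraction for sequencing, whereas the labels name molars and an RNeasy column kit. In the sample titles the word molar stands for the WT samples only, and the Mmp13-/- titles name no tooth. Whether the tooth differed with genotype cannot be told from these titles. In bulk pulp, more eosinophil RNA per cell and more cells of the lineage cannot be told apart.

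Library totals ranged from 21561420 to 29980236 counts. Normalized counts below were scaled with TMM library factors to the mean library. The targeted gene, Mmp13, stood at 826 to 1072 normalized counts in WT and at 8.85 to 64.0 in Mmp13-/- (log2 fold change -4.96, adjusted p = 7.67e-05, edgeR quasi-likelihood test). Type I collagen Col1a1, a main product of odontoblasts and pulp fibroblasts, was present at 968401 normalized counts or more in every WT sample and 216640 or more in every Mmp13-/- sample. The odontoblast gene Dspp was at 14331 normalized counts or more in all samples. The libraries also differed in counts at genes of the sense of smell. Over 1409 odorant and vomeronasal receptor genes, counts per kilobase of exon were 0.0970 to 0.118 among WT samples but 1.504, 1.755 and 4.796 for samples 1, 2 and 6 of Mmp13-/-. This receptor-gene rate moved with genotype and cannot be told apart from it, the source of these counts was not tested, and the rate is set below beside the 8 genes and the low-count genes it is close to. Sample 6 also stood apart over the whole library: chi-square per degree of freedom was 411 and 317 against Mmp13-/- samples 1 and 2, 41.1 between those, and 292 to 838 between genotypes.

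Ear1, Ear2 and Ear6 are copies of one family, and their sequences are shown because they set how far reads can be told apart between them. All 3 lie on chromosome 14 (GRCm38, GENCODE M21 annotation, as for all positions here). Ear1 spans 43818765 to 43875517 on the minus strand, a span of 56753 bases of which 0.73 kb is exon. Ear2 spans 44102654 to 44103534 and Ear6 spans 51853699 to 51854643, both on the plus strand. The first 180 coding bases of each are as follows (GENCODE M21 transcripts, 5′ to 3′), with capitals at the 29 positions where the 3 genes are not all the same.
Ear1: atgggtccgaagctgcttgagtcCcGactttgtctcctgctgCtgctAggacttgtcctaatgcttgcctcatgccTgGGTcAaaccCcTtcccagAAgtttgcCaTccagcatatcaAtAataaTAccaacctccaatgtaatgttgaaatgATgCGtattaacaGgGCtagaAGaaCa
Ear2: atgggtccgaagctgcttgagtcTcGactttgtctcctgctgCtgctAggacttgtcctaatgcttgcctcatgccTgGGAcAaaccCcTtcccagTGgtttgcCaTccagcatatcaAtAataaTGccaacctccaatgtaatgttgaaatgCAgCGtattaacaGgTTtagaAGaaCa
Ear6: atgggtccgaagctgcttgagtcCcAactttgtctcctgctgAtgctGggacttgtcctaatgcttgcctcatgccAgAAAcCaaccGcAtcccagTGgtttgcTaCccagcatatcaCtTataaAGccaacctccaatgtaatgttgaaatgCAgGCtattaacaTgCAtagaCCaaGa

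Over the whole coding sequence, Ear1 (465 bases) and Ear2 (468 bases) were 95.1% identical, while Ear6 (465 bases) was 87.3% identical to Ear1 and 87.6% to Ear2. Reads were 150 bases long, so every window of 150 bases of each member's longest transcript was looked up in the transcripts of all other genes. For Ear1, 5.67% of windows also occurred in a transcript of the pseudogene Ear-ps9. For Ear2, 6.32% of windows also occurred in Ear10. No window of Ear6, Prg2, Prg3, Epx, Ccr3 or Il5ra was found in another gene. Exact copies of read length were thus few. Estimated counts were also fractional in genes with no shared window, such as Prg2 (43.4 in WT sample 2), so fractions do not measure shared reads. The lookup took exact matches alone. Reads placed with mismatches between Ear1, Ear2 and Ear10 were not tested, and the counts of Ear1 and Ear2 remain uncertain.

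The ribonucleases had the largest differences of the 8 genes. They are secreted members of the ribonuclease A superfamily stored in eosinophil granules, and macrophages are known to express some of them too. Ear1 was at 3.78, 1.88 and 10.01 normalized counts in WT samples 2, 4 and 5, and at 343, 881 and 87.1 in Mmp13-/- samples 1, 2 and 6. The lowest Mmp13-/- sample was above the highest WT sample, and sample 2 was 10.1 times sample 6 within Mmp13-/-. On the log2 scale Ear1 was higher by 6.39 (standard error 0.89). Ear2 was at 0.707, 3.76 and 6.95 normalized counts in the WT samples and at 268, 710 and 130 in the Mmp13-/- samples. Its genotypes did not overlap, and its log2 fold change of 6.55 (standard error 0.76) was the highest of the 8.

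Ear6 was at 5.67, 7.53 and 3.99 normalized counts in WT and at 284, 722 and 79.6 in Mmp13-/-, again with no overlap. Its log2 fold change was 5.96 (standard error 0.80). The WT end of these fold changes rests on very few reads. Estimated counts were 2 to 10.02 for Ear1, 0.749 to 6.96 for Ear2 and 4 to 8 for Ear6 across WT samples, whereas the smallest Mmp13-/- count of the 3 genes was 50.2.

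Of 12 other eosinophil-associated ribonucleases listed, 4 were in the table and none passed the filter on low counts. Ear10, the closest coding match to Ear2 at 97.0% identity, was at 0 in all WT samples and at 7.16, 10.1 and 3.17 normalized counts in Mmp13-/-. Rnase2a was likewise at 0 in WT and at 6.18, 2.87 and 15.4 in Mmp13-/-. Its Mmp13-/- order had sample 6 highest, as had Ear14 (0.220, 5.48 and 12.7 normalized counts, a gene named after its values were seen). Rnase2b overlapped between genotypes, at 7.29 to 7.69 normalized counts in WT and 6.55 to 30.3 in Mmp13-/-. Against the receptor-gene rate, sample 6 held 0.615 times the count that the rate gives for Ear10 and 1.76 times for Ear14, and sample 1 held 0.178 times for Ear14. Each of these 4 genes was below the lowest Mmp13-/- value of Ear1, Ear2 and Ear6 in every sample.

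Outside this group, 4 of the other ribonuclease A genes were tested, of which 2 rose, beside 20.4% of all genes tested. Rnase6 rose from 3.99 to 9.44 normalized counts in WT to 55.0 to 92.5 in Mmp13-/- (log2 fold change 3.43, adjusted p = 0.000254, edgeR). Rnase4, which is widely expressed, rose too (log2 fold change 1.42, adjusted p = 0.000217, edgeR). Ang, which encodes angiogenin, was not called (log2 fold change -0.98, adjusted p = 0.0605, edgeR) but was without Mmp13-/- sample 2 and with no filter.

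Prg2 encodes major basic protein, which forms the crystalline core of the granule, and Prg3 encodes its homologue. They are neighbours on the plus strand of chromosome 2, Prg2 from 84980461 to 84983632 and Prg3 from 84988215 to 84993886, with 4582 bases between them. Their coding sequences were 64.5% identical. Prg2 was at 41.0, 64.0 and 101 normalized counts in WT samples 2, 4 and 5, and at 1515, 3515 and 482 in Mmp13-/- samples 1, 2 and 6. Its genotypes did not overlap, and the log2 fold change was 4.75 (standard error 0.66). Prg2 had the highest level per kilobase of exon of the 8 genes in every one of the 6 samples, at 48.9 to 120 normalized counts per kilobase in WT and 576 to 4194 in Mmp13-/-.

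Prg3 was at 7.56, 0 and 5.18 normalized counts in WT and at 152, 269 and 74.7 in Mmp13-/-. The 0 in WT sample 4 allows up to 2.82 normalized counts (3 reads), which covers counting error only. The genotypes did not overlap, and the log2 fold change was 5.28 (standard error 0.70). Epx encodes eosinophil peroxidase and lies on the minus strand of chromosome 11 from 87864000 to 87875536. It was at 35.3, 55.6 and 93.5 normalized counts in WT and at 433, 1077 and 254 in Mmp13-/-. Its genotypes did not overlap either, and its log2 fold change of 3.27 (standard error 0.53) was the lowest of the granule genes.

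Ccr3, the eotaxin receptor, lies on the plus strand of chromosome 9 from 124021972 to 124031689. It was at 1.97, 3.76 and 22.0 normalized counts in WT samples 2, 4 and 5, and at 52.2, 108 and 44.4 in Mmp13-/- samples 1, 2 and 6. WT sample 5 stood well above the other WT samples and below the lowest Mmp13-/- sample. The log2 fold change was 2.90 (standard error 0.72), and it was 4.47 without WT sample 5. With a correction of each library for GC content it was 1.98 and Ccr3 was no longer called.

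Il5ra, the ligand-binding chain of the IL-5 receptor, lies on the minus strand of chromosome 6 from 106710357 to 106749037. It was at 3.78, 5.65 and 3.99 normalized counts in WT and at 24.9, 36.9 and 37.4 in Mmp13-/-. The genotypes did not overlap, and the Mmp13-/- samples lay within 1.501 times of each other, the narrowest spread of the 8 genes. Its log2 fold change was 2.85 (standard error 0.51). The receptor-gene rate gave 18.7%, 15.5% and 72.6% of the Il5ra count in Mmp13-/- samples 1, 2 and 6. Any part of that rate in the narrow spread was not tested.

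**Figure D1:**
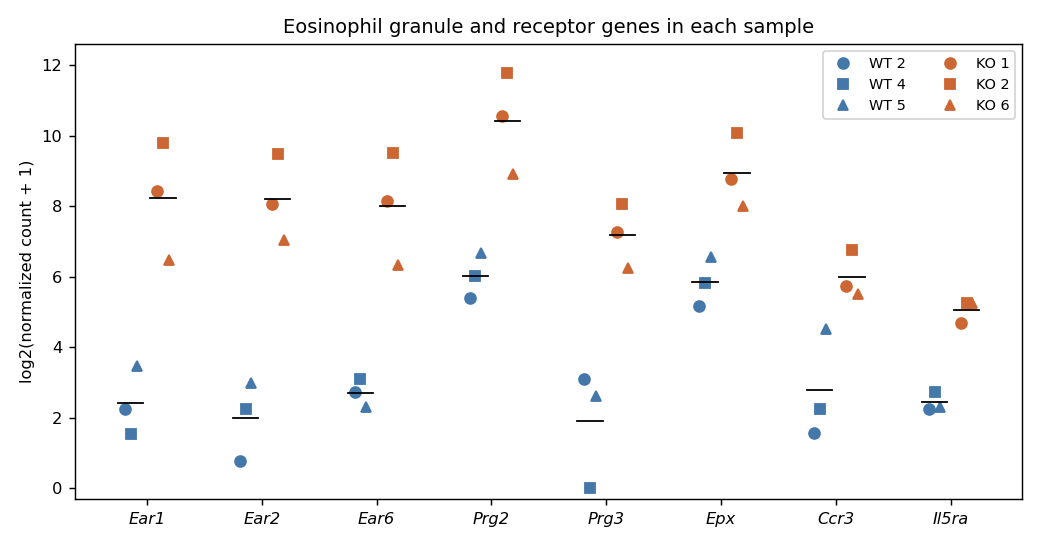
Each point is 1 sample (blue, WT samples 2, 4 and 5; orange, Mmp13-/- samples 1, 2 and 6), the vertical axis is log2(normalized count + 1) and the black bars are means of the 3 samples on that scale. In all 8 genes every Mmp13-/- sample sits above every WT sample, and Mmp13-/- sample 2 is the top point in 7 of them.

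All 8 genes were thus called higher in Mmp13-/- (adjusted p under 0.05 and over 2-fold, edgeR), beside 20.4% of all genes tested, and all 8 had every Mmp13-/- sample above every WT sample, beside 31.8% of all genes tested. Because these values chose the genes, nothing is read from either count. The median log2 fold change of the 8 was 5.02, against 0.10 over all genes tested. Ranked by log2 fold change, Ear2 was number 439 and Il5ra number 1590 of 24534. As many as 6.48% of all genes tested had a log2 fold change at least as high as that of Il5ra. Without Mmp13-/- sample 2 the median of the 8 was 4.26, with Ear2 at 5.61 and Ccr3 at 2.34, and all 8 were still called. With the GC correction 7 of the 8 were called, beside 16.3% of all genes called higher in that fit.

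In the Mmp13-/- samples, the ribonuclease and granule genes stood further above the receptor-gene rate than Ccr3 and Il5ra did. At the receptor-gene rate of Mmp13-/- sample 6, exons of the length of Prg2 would hold 4.02 counts, against the 305 found. For the 6 ribonuclease and granule genes, the count given by that rate was 0.0383% to 9.65% of the count found in each Mmp13-/- sample. For Ccr3 it was 8.18%, 4.87% and 56.0% in samples 1, 2 and 6, and for Il5ra it was 18.7%, 15.5% and 72.6%. In sample 6 the counts of both receptor genes were thus less than 2 times what the rate gives, namely 28 against 15.7 for Ccr3 and 23.6 against 17.1 for Il5ra. With this rate subtracted in each library, Ccr3 was still called (log2 fold change 2.77), whereas Il5ra no longer passed the filter on low counts. Both were also called without Mmp13-/- sample 6.

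**Figure D2:**
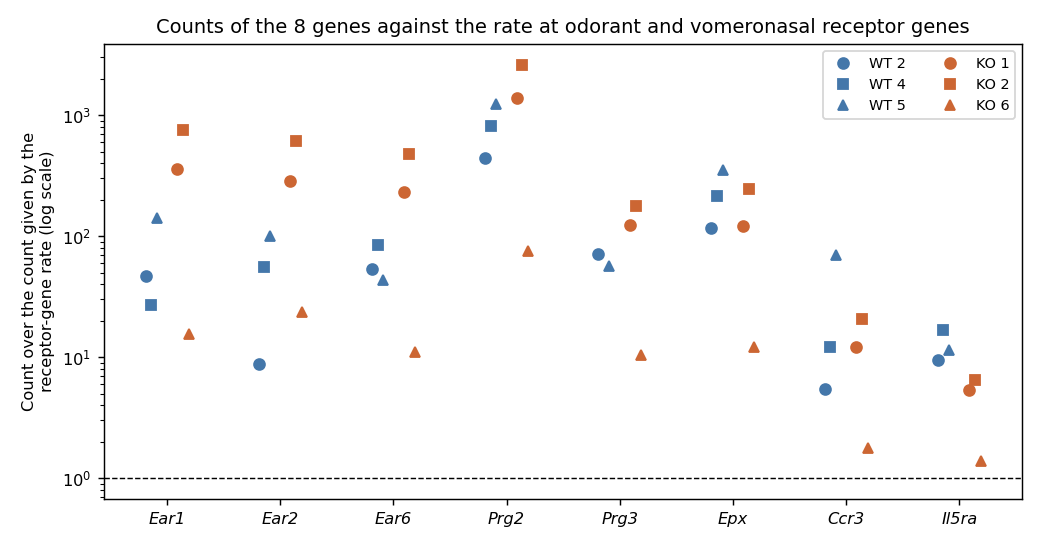
Each point is the estimated count of a gene in 1 sample divided by the count that the sample's rate at odorant and vomeronasal receptor genes gives over the gene's exon length (log scale, dashed line at 1; the 0 of Prg3 in WT sample 4 is not drawn). The lowest points are those of Ccr3 (1.78) and Il5ra (1.38) in Mmp13-/- sample 6, while Prg2 lies between 75.8 and 2614.

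The 3 Mmp13-/- samples were far apart in these genes. Summed over the 8, WT samples 2, 4 and 5 held 99.7, 142 and 246 normalized counts, and Mmp13-/- samples 1, 2 and 6 held 3072, 7318 and 1189. Sample 2 was highest, sample 1 next and sample 6 lowest in 7 of the 8 genes, an order that 26.9% of all genes tested had. Il5ra was the exception, with sample 6 highest. The receptor-gene rate had sample 6 highest as well, whereas the other 7 genes had sample 6 lowest. Any part of that rate in the order of the 8 genes was not tested. Sample 1 held 0.378 to 0.566 times the level of sample 2 in the ribonuclease and granule genes, and sample 6 held 0.0989 to 0.278 times. Among WT samples, sample 5 was highest, sample 4 next and sample 2 lowest in 4 of the 8 (Ear2, Prg2, Epx and Ccr3), against 16.9% of all genes tested.

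**Figure D3:**
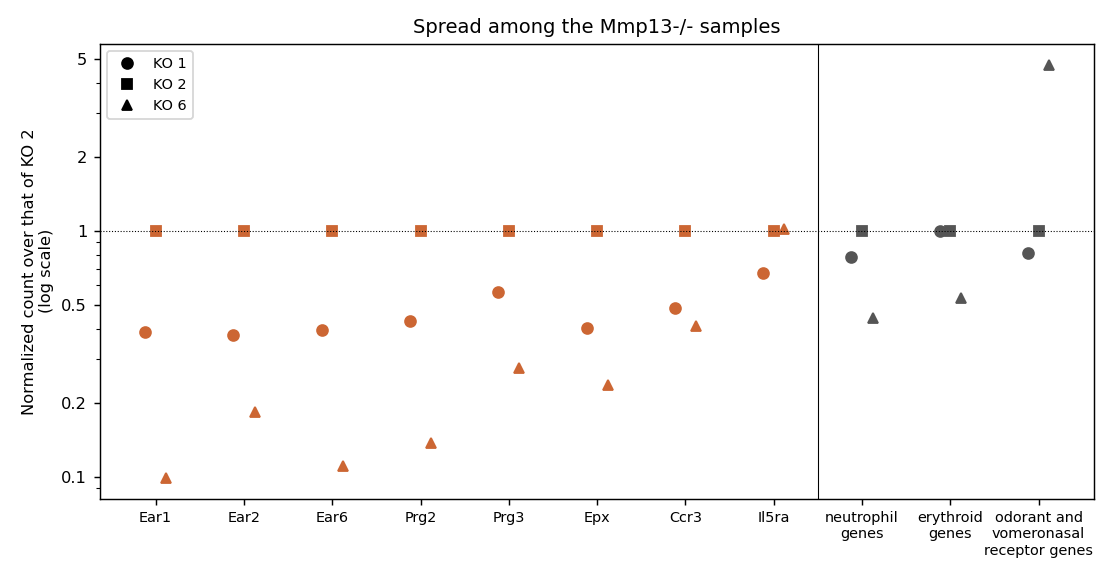
Normalized count of each Mmp13-/- sample divided by that of sample 2 (log scale), for the 8 genes (orange) and, in grey, for the summed neutrophil list, the summed erythroid list and the receptor genes that give the background rate. Sample 6 falls to 0.0989 for Ear1 and stands at 0.444 for the neutrophil sum, 0.534 for the erythroid sum and 4.74 for the receptor genes.

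Relative amounts of the 8 transcripts within a sample also differed between genotypes. Prg2 held 40.9% to 45.0% of the counts of the 8 genes in WT and 40.6% to 49.3% in Mmp13-/-, so its share overlapped. Epx held 35.4%, 39.1% and 37.9% in WT samples 2, 4 and 5 but 14.1%, 14.7% and 21.3% in Mmp13-/- samples 1, 2 and 6. The Ear genes together held 10.2%, 9.27% and 8.50% in WT and 29.1%, 31.6% and 24.96% in Mmp13-/-. Neither the Epx share nor the Ear share overlapped between genotypes. Transcript GC content was 44.1% for Ear2, 44.2% for Ear1, 48.3% for Ear6, 51.5% for Prg3, 52.9% for Prg2 and 56.3% for Epx. The log2 fold changes of these genes fell in the same order, from 6.55 to 3.27. Ccr3 (39.1% GC) and Il5ra (42.7% GC) did not follow it, with log2 fold changes of 2.90 and 2.85. Any part of GC content in the shares was not tested. These shares are of counts and not corrected for length, and the WT shares rest on 106 to 247 counts per sample.

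Epx per Prg2 count was 0.861 to 0.927 in WT, the narrowest WT range for its size of any member, and was 0.286, 0.306 and 0.526 in samples 1, 2 and 6 of Mmp13-/-. On the log2 scale the fold change of Epx was lower than that of Prg2 by 1.48, and with the GC correction by 1.19. Over the 17 fits (the main one and 16 alternatives) this difference in log2 fold change ran from -1.58 to -1.19. Per kilobase of exon, Epx ranked next after Prg2 in all 3 WT samples and at rank 6, 5 and 4 in Mmp13-/- samples 1, 2 and 6. Ear1, Ear2 and Ear6 each had a higher log2 fold change than Prg2 in all 16 fits that tested them, by 0.63 to 2.19. With the GC correction the excess went from 1.64 to 0.78 for Ear1, from 1.80 to 0.94 for Ear2 and from 1.20 to 0.78 for Ear6. Prg3 had no steady place, at 0 to 0.184 counts per Prg2 count in WT and 0.0764 to 0.155 in Mmp13-/-. As the genes were chosen on this contrast, these differences in make-up are descriptions.

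**Figure D4:**
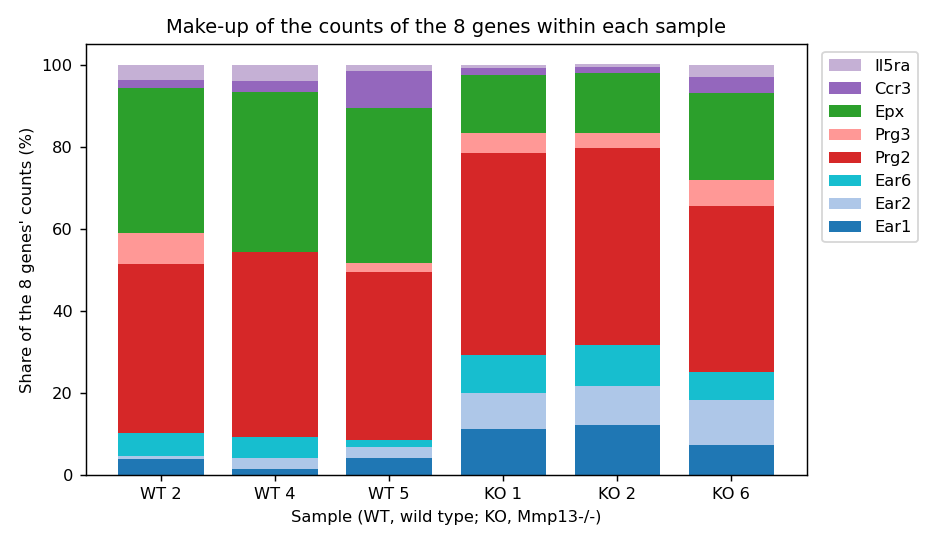
Stacked bars give the share of each gene in the summed estimated counts of the 8 genes (percent, not corrected for gene length or GC content) in each sample. The Epx share (green) is 35.4% to 39.1% in WT and 14.1% to 21.3% in Mmp13-/-, and the Ear genes (blue shades) go from 8.50% to 10.2% up to 24.96% to 31.6%.

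The sequence before the start of each gene was compared because the ribonuclease genes moved together. RefSeq promoters (GRCm38.p6) were found for 7 of the 8 genes. Over the 250 bases upstream, Ear1 and Ear2 were 97.6% identical, Ear1 and Ear10 91.7%, and Ear1 and Ear6 78.2%. The last 120 upstream bases of Ear1 (chr14:43819640-43819759, minus strand), Ear2 (chr14:44102534-44102653, plus strand) and Ear10 (chr14:43923597-43923716, minus strand) are as follows, with capitals at the 12 aligned positions where bases differ. The Ear1 stretch lies inside the longer span that GENCODE gives that gene.
Ear1: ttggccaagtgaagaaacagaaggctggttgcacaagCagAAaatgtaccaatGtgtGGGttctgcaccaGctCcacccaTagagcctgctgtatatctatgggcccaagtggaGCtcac
Ear2: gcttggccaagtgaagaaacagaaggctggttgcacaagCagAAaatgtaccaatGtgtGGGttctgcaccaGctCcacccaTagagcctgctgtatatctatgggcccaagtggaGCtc
Ear10: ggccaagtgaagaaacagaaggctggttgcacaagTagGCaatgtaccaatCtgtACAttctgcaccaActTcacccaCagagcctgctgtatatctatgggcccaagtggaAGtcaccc

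At each of those 12 positions Ear10 was the gene that differed, and Ear1 and Ear2 had the same base. Ear1 and Ear2 were at 87.1 normalized counts or more in each Mmp13-/- sample, and Ear10 at 10.1 or fewer. Ear6, whose upstream bases were only 78.2% identical to those of Ear1, was at 79.6 or more. Whether any of these positions bears on these levels was not tested. The letters AGATAA and TGATAA, which are among those read by GATA factors such as the eosinophil lineage factor GATA1, were searched on both strands of the 250 upstream bases. One or the other occurred in 16.6% of 32851 promoters of that length, and in those of Prg3, Ccr3 and Il5ra among the 7 genes. The last 150 upstream bases of these 3 genes are shown with the match in capitals, for Prg3 (chr2:84988065-84988214, plus strand), Ccr3 (chr9:124021821-124021970, plus strand) and Il5ra (chr6:106749038-106749187, minus strand).
Prg3: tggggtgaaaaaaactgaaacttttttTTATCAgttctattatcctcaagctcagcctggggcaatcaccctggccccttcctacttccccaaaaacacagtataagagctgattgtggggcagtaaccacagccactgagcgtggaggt
Ccr3: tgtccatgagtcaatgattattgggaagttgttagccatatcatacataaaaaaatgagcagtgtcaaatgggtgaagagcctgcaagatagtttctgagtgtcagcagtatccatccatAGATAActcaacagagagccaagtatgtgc
Il5ra: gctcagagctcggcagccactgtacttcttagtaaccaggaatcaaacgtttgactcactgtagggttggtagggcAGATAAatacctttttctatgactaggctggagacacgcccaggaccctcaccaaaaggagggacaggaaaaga

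Prg3 held TGATAA on the opposite strand 123 to 118 bases upstream, Ccr3 held AGATAA 30 to 25 bases upstream, and Il5ra held it 74 to 69 bases upstream. The 3 Ear genes and Epx, which had log2 fold changes from 3.27 to 6.55, held neither AGATAA nor TGATAA in this window. Other letters that hold GATA, such as the AGATAG in the Ccr3 stretch above, were not searched. TATAAA, which 12.4% of promoters held, was found in Epx alone among the 7, 24 to 19 bases upstream. GAGGAA, a core of ETS factor sites that 23.3% of promoters held, was found in Ccr3 alone. A match of letters is a description and not a site of binding.

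Genes outside the 8 that eosinophils are known to express were higher in part. Of 12 listed, 10 were tested, 7 rose and none fell, beside 20.4% and 9.68% of all genes tested. The list median log2 fold change was 1.41. Siglecf, the surface lectin used to define mouse eosinophils, was at 3.78, 7.93 and 17.1 normalized counts in WT and at 41.0, 84.6 and 69.8 in Mmp13-/-. It rose, by 2.78 on the log2 scale with a standard error of 0.54 (adjusted p = 0.00207, edgeR). Its count in Mmp13-/- sample 6 was 3.29 times what the receptor-gene rate gives. The integrin genes Itga4 (log2 fold change 1.29, adjusted p = 0.000537, edgeR) and Itgam (1.17, adjusted p = 0.00344, edgeR), which many leukocytes share, rose as well. With the GC correction the log2 fold change of Itga4 was 0.66 and it was no longer called, and Itgam lost its call without WT sample 2 or Mmp13-/- sample 2.

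Alox15, the lipoxygenase abundant in eosinophils and some macrophages, was at 35.9, 29.1 and 861 normalized counts in WT samples 2, 4 and 5 and at 2006, 345 and 345 in Mmp13-/- samples 1, 2 and 6. Its genotypes overlapped through WT sample 5, which was also the highest WT sample for Ccr3, Prg2 and Epx. It was not called (log2 fold change 1.56 with a standard error of 1.11, adjusted p = 0.266, edgeR), but was called at 4.72 without WT sample 5. Alox15 was also called with library totals alone and with no filter. Ptgdr2, the prostaglandin receptor of eosinophils, basophils and type 2 T cells, was not called (log2 fold change 0.72, adjusted p = 0.246, edgeR).

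Of 8 listed genes for the IL-5, IL-3 and GM-CSF receptor chains and their signalling, all tested, none was called higher, beside 20.4% of all genes. Lower calls were 2 (beside 9.68% of all genes), and the median log2 fold change was -0.10. All 3 Mmp13-/- samples lay below all 3 WT samples in 3 of the 8, beside 29.1% of all genes tested. Csf2rb, the shared beta chain that signals for Il5ra, was at 281 to 459 normalized counts in WT and 396 to 546 in Mmp13-/- (log2 fold change 0.24, adjusted p = 0.361, edgeR), and its genotypes overlapped. Stat5a (log2 fold change -1.19, adjusted p = 0.000284, edgeR) and Stat5b (-1.22, adjusted p = 0.00123, edgeR), the transcription factors downstream, fell. With the GC correction these values were -0.28 and -0.72, neither was called and the list median was 0.25. Stat5a was also not called with upper-quartile factors. Csf2rb was at 0.86 with the GC correction (adjusted p = 0.00731, edgeR), which is under 2-fold and so not called. The kinase gene Jak2 was not called (log2 fold change 0.24, adjusted p = 0.261, edgeR).

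Among cytokines and chemoattractants for eosinophils, 14 genes were listed, 7 were tested and 2 rose, beside 20.4% of all genes tested. Il5 itself was at 4.96, 4.01 and 12.2 normalized counts in WT and 14.5, 11.7 and 9.03 in Mmp13-/-, overlapping between genotypes (log2 fold change 0.83, adjusted p = 0.295, edgeR). In Mmp13-/- sample 6 its count was 0.773 times what the receptor-gene rate gives. Ccl11, the eotaxin made by stromal cells, was at 26.4, 31.6 and 48.5 normalized counts in WT and 49.5, 75.5 and 66.4 in Mmp13-/-. These did not overlap by a narrow margin, and Ccl11 was not called (log2 fold change 0.84, adjusted p = 0.0604, edgeR), though it was without WT sample 5 and with upper-quartile factors.

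Ccl24, the eotaxin made by macrophages, rose from 1.997 to 5.67 normalized counts in WT to 10.1, 18.4 and 29.1 in Mmp13-/- (log2 fold change 2.25, adjusted p = 0.0170, edgeR). Its count in sample 6 was 2.96 times what the receptor-gene rate gives, and its call was lost without WT sample 4, WT sample 5 or Mmp13-/- sample 2. Ccl8, a further chemokine of macrophages, rose from 0 to 3.76 normalized counts in WT to 26.1, 52.4 and 35.8 (log2 fold change 4.78, adjusted p = 0.00187, edgeR). All WT counts of Ccl8 were in WT sample 4, without which WT stood at 0 and the fitted value, which is then no bound, was 8.23. Il33, an alarmin of stromal cells, overlapped between genotypes (log2 fold change 0.20, adjusted p = 0.609, edgeR).

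Of 11 lineage transcription factors, all tested, 2 rose and none fell, a share near the 20.4% of all genes tested that were called higher. Gata1, needed for the eosinophil, erythroid, megakaryocyte and mast cell lineages, was at 32.6, 68.0 and 82.3 normalized counts in WT and 186, 159 and 110 in Mmp13-/- (log2 fold change 1.32, adjusted p = 0.00823, edgeR). Its highest Mmp13-/- sample was number 1, not number 2. Cebpe, a factor of late granulocyte maturation, was at 37.9, 68.2 and 94.2 normalized counts in WT and 147, 226 and 99.5 in Mmp13-/- (log2 fold change 1.25, adjusted p = 0.0172, edgeR). Its Mmp13-/- order was that of the granule genes, and its call was lost without WT sample 2, WT sample 4 or Mmp13-/- sample 2 and with limma on the deposited log2 values. Gata1 lost its call without WT sample 2. The 3 most abundant factors on the list, Xbp1, Id1 and Cebpa, were not called, and Cebpa was called lower without WT sample 2 or Mmp13-/- sample 1. The list median was -0.08, and 0.79 with the GC correction.

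Markers of other blood cells were also higher in part, but their sums differed less between the Mmp13-/- samples than that of the 8 genes. Summed over the 8, samples 1 and 6 stood at 0.42 and 0.16 times sample 2. These values were 0.78 and 0.44 for neutrophil genes, 0.9997 and 0.5336 for erythroid genes and 0.79 and 0.59 for monocyte and macrophage genes. For B cell and T cell genes they were 0.89 and 0.76, and for mast cell and basophil genes 0.94 and 0.92. Of 16 neutrophil genes, 14 rose and none fell, beside 20.4% and 9.68% of all genes tested. Their median log2 fold change was 1.97, and their summed normalized counts ranged from 6722 to 12368 in WT and from 27219 to 61320 in Mmp13-/-. Sample 2 was the highest and sample 6 the lowest Mmp13-/- sample in all 16, as for the granule genes. Over all genes tested, sample 2 was highest in 35.4% and sample 6 lowest in 46.6%. S100a9 (log2 fold change 5.19, adjusted p = 3.96e-05, edgeR) and S100a8 (4.90, adjusted p = 4.36e-05, edgeR), the calcium-binding proteins of neutrophils, rose. The granule protein gene Ltf had a smaller difference (1.24, adjusted p = 0.0135, edgeR) and lost its call without WT sample 2 or Mmp13-/- sample 2 and with limma.

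Of 12 erythroid precursor genes 8 rose and none fell, beside 20.4% and 9.68% of all genes tested. Their median log2 fold change was 1.76, with sums of 24923 to 40672 normalized counts in WT and 59439 to 111386 in Mmp13-/-. The globin gene Hbb-bs rose with a log2 fold change of 3.28 (adjusted p = 0.000121, edgeR). The alpha globin genes Hba-a1 and Hba-a2 were not called (log2 fold changes 0.77 and 0.66) except with the GC correction. Of 16 B cell and T cell genes 14 rose and none fell (median 1.94), with sums of 363 to 578 normalized counts in WT and 1587 to 2095 in Mmp13-/-. They include Rag1, which acts in lymphocyte precursors (log2 fold change 2.89, adjusted p = 0.000273, edgeR), and Pax5 (1.72, adjusted p = 0.000791, edgeR).

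Of 14 monocyte and macrophage genes 13 were tested, 6 rose and 1 fell, beside 20.4% and 9.68% of all genes tested. The list median was 0.44, with sums of 6498 to 6958 normalized counts in WT and 11235 to 18898 in Mmp13-/-. Marco was at 0 in every WT sample. Lyz2, the lysozyme of myeloid cells, rose with a log2 fold change of 3.04 (adjusted p = 7.49e-05, edgeR), while Csf1r (0.44) and Mertk (0.37) were not called, Csf1r other than with the GC correction. That correction gave 9 higher, beside 16.3% of all genes tested, none lower and a median of 1.18 for the monocyte and macrophage list. Of 13 mast cell and basophil genes 10 were tested, 5 rose and none fell (median 1.43, sums of 1028 to 1268 normalized counts in WT and 1702 to 1856 in Mmp13-/-). Hdc, which makes histamine, rose with a log2 fold change of 1.36 (adjusted p = 0.00132, edgeR), whereas Kit (0.29) and Prss34 (0.77) were not called. With the GC correction 9 of the 10 were called, Prss34 among them, as it also was without WT sample 5. Of 9 odontoblast and pulp genes 4 rose and 2 fell (median -0.19), with Col1a1 lower (log2 fold change -2.16, adjusted p = 0.000668, edgeR), Dspp higher (1.13, adjusted p = 0.0370, edgeR) and Bglap not called (-0.19). Dspp lost its call with DESeq2, with limma and without WT sample 4 or 5 or Mmp13-/- sample 1 or 2, and with the GC correction 2 of the 9 were higher and 1 lower around a median of 0.55. The part of any of these other cell types in the values of the 8 genes was not tested.

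**Figure D5:**
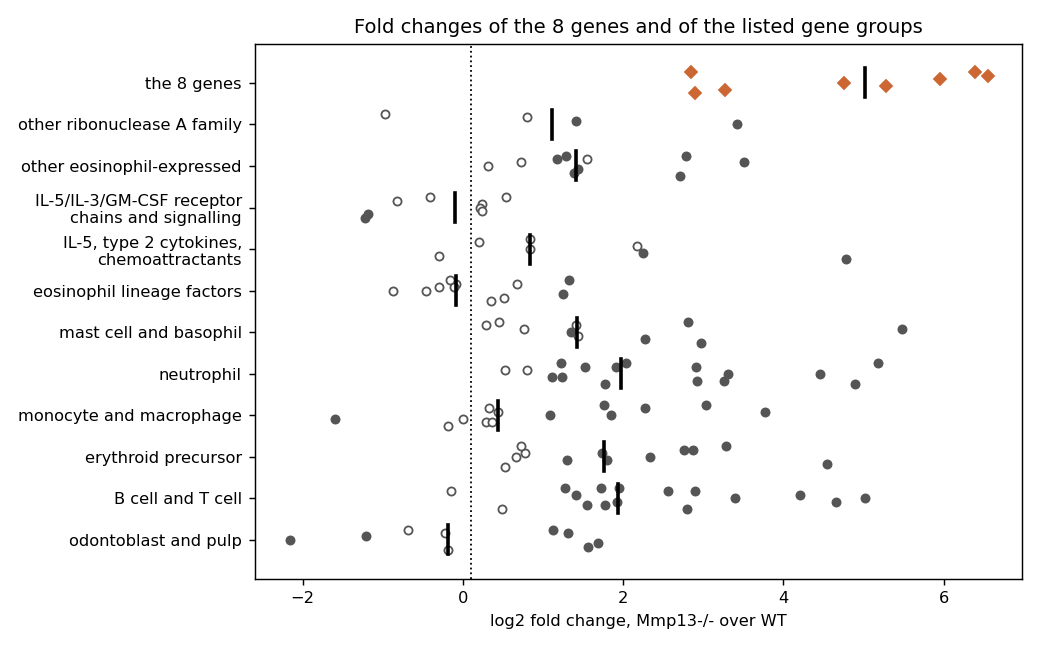
Log2 fold change (Mmp13-/- over WT) of the 8 genes (orange diamonds) and of the tested genes of each list (circles, filled where called with adjusted p under 0.05 and over 2-fold in edgeR). Black bars are medians and the dotted line is the median of all genes tested (0.10), and the 8 genes run from 2.85 to 6.55 around a median of 5.02.

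Prg2 was set against 6 genes of other blood cells within each sample, and Epx against Mpo. Prg2 counts per S100a8 count were 0.239 to 0.339 in WT and 0.124 to 0.356 in Mmp13-/-, so the ranges overlapped. Prg2 per Chil3, a lectin of neutrophils and alternatively activated macrophages, also overlapped, at 0.467 to 0.667 in WT and 0.286 to 0.997 in Mmp13-/-. Prg2 per Mpo, the peroxidase of neutrophil precursors, was 0.0646 to 0.118 in WT, and 0.726, 1.65 and 0.463 in samples 1, 2 and 6 of Mmp13-/-, with no overlap. Epx per Mpo, which compares the peroxidases of both granulocytes, was 0.0561 to 0.103 in WT and 0.207 to 0.505 in Mmp13-/-. Prg2 per Lyz2 (0.0491 to 0.0986 in WT, 0.108 to 0.354 in Mmp13-/-) and per Ctsg, a protease of neutrophil precursors (1.81 to 2.25 in WT, 3.11 to 8.24 in Mmp13-/-), did not overlap either, and Prg2 per Hbb-bs overlapped narrowly (up to 0.0258 in WT, from 0.0245 in Mmp13-/-). S100a8 and Chil3, the partners with wide overlap, are also among the nearest profiles given next. Mpo, Ctsg and Chil3 as partners were chosen after their values were seen.

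The genes whose profile over the 6 samples was most like the mean centred profile of the 8 were found by the root mean square difference of centred log2 values. They included Chil3 (0.335), S100a9 (0.397), S100a8 (0.410) and Klrb1f (0.457). On the same measure the 8 genes themselves stood at 0.324 (Prg2) to 1.28 (Prg3) from their own mean, so that these genes of other cells were nearer to it than 7 of the 8. Chil3 was at 87.7, 95.9 and 177 normalized counts in WT and at 2723, 3525 and 1690 in Mmp13-/-. The 6 values of each profile share libraries and the genotype contrast.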

How the data were processed

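Dental pulp RNA of 3 WT and 3 Mmp13-/- mice was sequenced with paired reads of 150 bases. The authors deposited 1 table with estimated counts per gene, made in Strand NGS, and log2 normalized values made from them by the authors and centred on each gene's median. The submitters' processing notes name mm10 and DESeq. The aligner and annotation are not given in the sources used here. Rounded estimated counts went into edgeR 4.0.16 under R 4.3.3 (quasi-likelihood test, TMM factors, filterByExpr, Benjamini-Hochberg adjustment over all genes, no covariate), which was tested on simulated data. Called means adjusted p under 0.05 and over 2-fold. The SE is that of the fit, and with 3 against 3 samples no permutation p can fall below 0.10, so every p comes from the fit across all genes. Library totals were 28442936 to 29980236 counts in WT and 21561420 to 26547121 in Mmp13-/-. Positions, exon lengths and GC content came from GENCODE M21, matched by identifier for 99.8% of genes, and promoters from RefSeq. A background rate was taken for each library from odorant and vomeronasal receptor genes.

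The 8 members and all gene lists were chosen with earlier results of these data known. Genes named are the members, Mmp13, the 3 most abundant genes of each list, the set Il5, Ccl11, Ccl24, Siglecf, Alox15, Csf2rb, Gata1, Cebpe and Ptgdr2, and the 5 nearest profiles. Some genes that this rule names are not reported here. Any other gene is named for what it is compared with and was chosen after its values were seen. Alternatives were RLE and upper-quartile factors, totals alone, factors without the 100 most abundant genes, other filters, DESeq2 1.42.0, limma 3.58.1 on the log2 values, leaving out each sample, a GC correction and subtraction of the background rate.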

Additional observations from a re-analysis of the deposited data

How the results depend on the processing

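Over 16 alternatives, 121 values of a member were obtained. None reversed, 120 were still called, and 119 moved by less than the spread between samples. The exceptions were Ccr3 without WT replicate 5 (log2 fold change 4.47) and Il5ra with the GC correction (2.41), while Ccr3 was not called with the GC correction. The median log2 fold change of the members ran from 4.13 to 5.45, and from 4.26 to 5.41 with each sample left out, when all 8 were called each time. With at least 10 counts in every sample, 2 members (Prg2 and Epx) were tested and both were called. With subtraction of the background rate 7 were tested and 7 called. Genes called over all genes were 7381, and 4754 with the GC correction, 4666 with at least 10 counts in every sample and 14325 with no filter, which tests more genes. They ranged from 7146 to 8751 with each sample left out. Calls of listed genes ranged from 62 to 69 with a sample left out. The middle log2 fold change over the genes tested moved up by 0.21 with upper-quartile factors, by 0.11 with totals alone, by 0.12 with the GC correction and by 1.20 with no filter, and higher calls were then 5867 of 7205, 5975 of 7737, 4009 of 4754 and 11258 of 14325. No paired analysis was possible because the genotypes share only replicate number 2. Depth limits the WT end: WT estimates of Ear1, Ear2, Ear6, Prg3 and Il5ra rest on 10.02 counts or fewer per sample.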
